A study of Mus musculus with 6 samples.

Results

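Fth1, Ftl1, Aco1, Ireb2, Fbxl5, Ncoa4, Pcbp1 and Pcbp2 encode the ferritin subunits, the regulators of ferritin synthesis and turnover, and the chaperones that load ferritin with iron. These 8 genes, of 23896 gene symbols in the count tables, were chosen by name for that role, and each was followed as its RefSeq transcript with the highest mean count. The samples were MEL cells, a mouse erythroleukemia line that behaves as an early erythroid precursor held in proliferation. Cells were untreated (day 0) or had spent 2 or 4 days in medium with 2% DMSO, the inducer of terminal erythroid maturation in this line, and all groups grew in the same medium with serum. Each day had 2 libraries of poly(A)-selected RNA, which the submitters describe as biological replicates, so there were 6 libraries in all. The cells are 1 transformed line, and untreated cells were sampled on day 0 only, so time in culture and DMSO cannot be told apart.

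Ferritin is a hollow protein shell that stores iron in a safe form. Its heavy subunit (Fth1) oxidises iron and its light subunit (Ftl1) helps the mineral core to form. The iron regulatory proteins IRP1 (Aco1) and IRP2 (Ireb2) bind a hairpin called the iron-responsive element (IRE). At the 5′ end of a message, IRP binding blocks translation, and at the 3′ end of the transferrin receptor message it protects the message from decay. IRP1 exchanges RNA binding for aconitase activity when it carries an iron-sulfur cluster, while IRP2 is degraded in iron-replete cells through the ubiquitin ligase subunit FBXL5. NCOA4 carries ferritin to the lysosome, where its iron is released. PCBP1 and PCBP2 are RNA-binding proteins that also deliver iron to ferritin. Maturing red cell precursors draw most of their iron into heme, so storage, release and delivery are all active in this lineage. The libraries measured message levels, and neither translation nor protein was measured.

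The IRE hairpins are shown because they are the sites that the IRPs bind. They were found by a strict pattern that can miss an IRE, and IRP binding was not measured. A member without a match is therefore not shown to lack an IRE. Each stretch of 30 bases holds the bulged C and the CAGTGN loop in capitals, with 5 paired bases between them that close the loop. The 2 ferritin elements lie in the 5′ UTR, at chr19:9982731-9982760 (plus strand) for Fth1 and chr7:45459779-45459808 (minus strand) for Ftl1 in GRCm38 (GENCODE). The others belong to Alas2 (erythroid heme synthesis, chrX:150547457-150552149, plus strand, across an exon junction), Slc40a1 (the iron exporter ferroportin, chr1:45925465-45925494, minus strand) and the 3′ UTR of Tfrc (transferrin receptor, chr16:32631218-32631247, plus strand, the first of 4 matches there).
Fth1: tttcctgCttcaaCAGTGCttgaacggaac
Ftl1: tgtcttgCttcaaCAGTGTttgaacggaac
Alas2: tttggttCgtcctCAGTGCagggcaacagg
Slc40a1: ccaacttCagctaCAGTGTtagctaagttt
Tfrc: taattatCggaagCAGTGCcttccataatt
The Fth1 and Ftl1 elements had the same base at 27 of 30 positions, whereas Fth1 and Alas2 shared 15 and Fth1 and Slc40a1 shared 13. The search itself required the bulged C and the CAGTG of the loop, so every pair shares those bases. The same search matched the 5′ UTR of 31 of 20899 genes (0.148%) and the 3′ UTR of 129 of 21685 genes (0.595%). It matched the 5′ UTR of 2 of the 8 members, Fth1 and Ftl1, and the 3′ UTR of 0 members.

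Counts on transcripts summed to between 35294930 and 53899476 per library, and every member had at least 1592 counts in every library. All 8 members passed the filter on low counts. The erythroid identity on the labels was checked with a marker list of 8 genes, whose summed level went from between 863 and 942 CPM (counts scaled to a fixed library size, here with TMM factors) on day 0 to between 12373 and 14366 on day 4. Most of the day 4 sum was Hba-a1, an alpha-globin gene (125 ± 3.59 to 10628 ± 1179 CPM, SD, n = 2). From day 0 to day 4, 7 of the 8 markers rose, beside 36.2% of all transcripts called higher. Klf1 fell (-0.54, edgeR, adjusted p = 0.019). Its day 0 replicates stood far apart (251 ± 82.8 CPM, against 172 ± 1.13 on day 4, SD, n = 2). Summed macrophage, neutrophil, mast cell, lymphocyte and fibroblast markers stayed between 0 and 6.64 CPM in every library. The 4 megakaryocyte markers summed to between 269.6 and 276 CPM on day 0, 214 and 236 on day 2, and 543 and 618 on day 4, of which Itga2b, which erythroid precursors also express, made up most (569 ± 53.3 CPM on day 4, SD, n = 2). Itga2b rose from day 0 to day 4, and Pf4, Gp1bb and Ppbp fell, Pf4 by 2.39 on the log2 scale. Their part in the results was not tested. In such bulk RNA, fewer cells of a type and less RNA per cell cannot be told apart.

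Most of the 8 genes moved in the first 2 days, and only the ferritin genes passed the test in the second step. Between day 0 and day 2, Fth1, Ireb2 and Fbxl5 rose and Ncoa4 and Pcbp1 fell, at an adjusted p below 0.05 (edgeR's quasi-likelihood test, Benjamini-Hochberg over 18351 transcripts). That makes 5 of 8 members called, against 63.4% of all transcripts, with 31.9% called higher and 31.6% called lower. Between day 2 and day 4, Fth1 and Ftl1 rose and 0 members fell, so 2 of 8 were called, against 31% of all transcripts (14.6% higher and 16.4% lower). At an unadjusted p below 0.05, 0 members fell in that step either, and with DESeq2 0 fell. From day 0 to day 4, Fth1, Ftl1, Ireb2 and Fbxl5 rose and Ncoa4 and Pcbp1 fell, so 6 of 8 were called, against 72.3% of all transcripts (36.2% higher and 36.1% lower). The members were thus called about as often as other transcripts in the first step and overall. Their median log2 fold change was 0.17, 0.03 and 0.21 in the 3 comparisons, beside 0.02, 0.00 and 0.00 for all transcripts, and the median size of their changes was 0.49, 0.13 and 0.52, beside 0.52, 0.28 and 0.71.

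**Figure D1:**
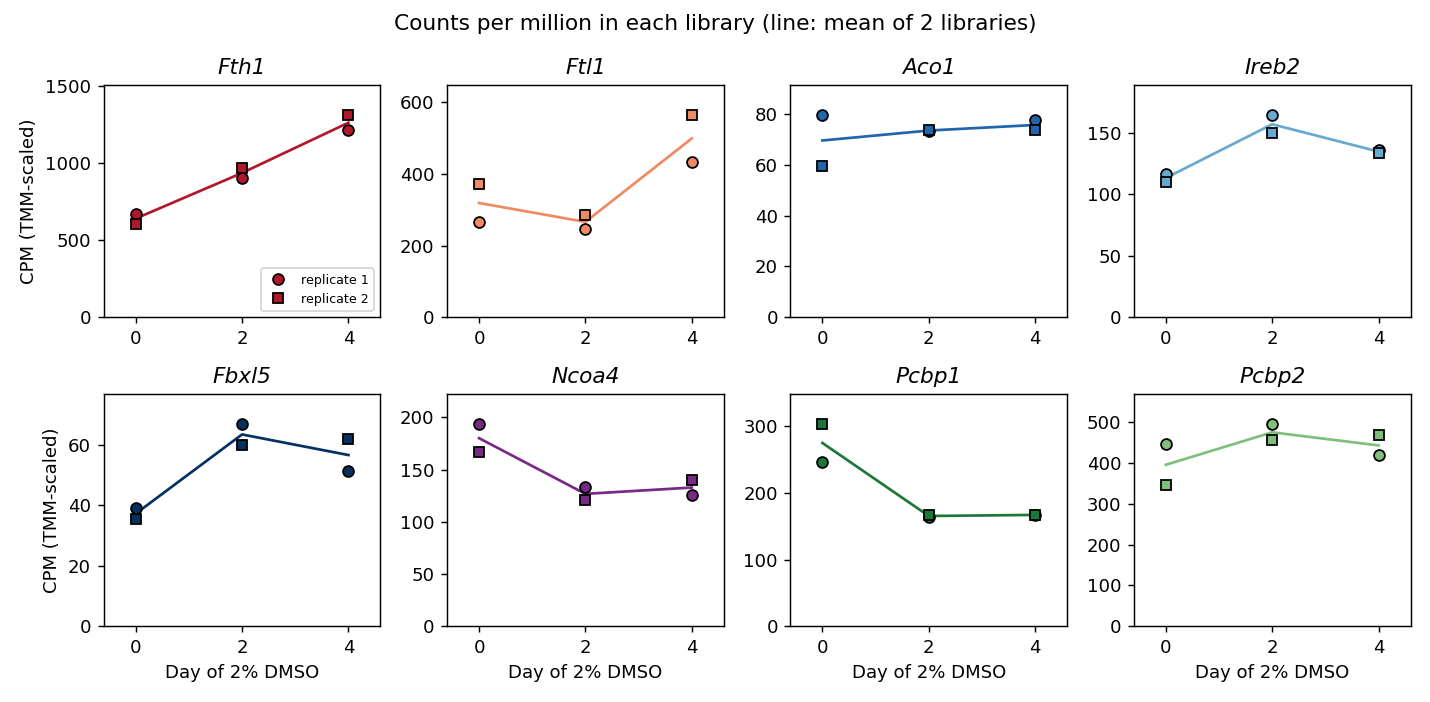
TMM-scaled counts (CPM, vertical axis, from 0) of the 8 genes on days 0, 2 and 4 of 2% DMSO; each point is 1 library (circle replicate 1, square replicate 2) and the line joins the means of 2 libraries. Fth1 lies higher on each later day (606 to 671, 899 to 969, 1211 to 1308 CPM), while Pcbp1 drops after day 0 and stays at 163 to 167 CPM.

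Fth1, the ferritin heavy chain (NR_073181, chromosome 19, 9980600 to 9985111), rose in both steps and was 1.97-fold higher on day 4 than on day 0. Its levels, scaled by TMM factors, were 671 and 606 CPM on day 0, 899 and 969 CPM on day 2, and 1211 and 1308 CPM on day 4. No library of 1 day overlapped with those of another. The log2 fold change was 0.55 ± 0.13 (SE; adjusted p = 0.0031) for day 2 against day 0, 0.43 ± 0.13 (adjusted p = 0.026) for day 4 against day 2, and 0.98 ± 0.13 (adjusted p = 3.8e-05) for day 4 against day 0. The second step was the less secure. It lost its call with total counts as the only scaling (0.35, adjusted p = 0.063) and when any library of day 2 or day 4 was left out: 0.38 without day 2 replicate 1, 0.48 without day 2 replicate 2, 0.48 without day 4 replicate 1 and 0.37 without day 4 replicate 2. The transcript with the highest count is a noncoding variant of 1494 bases. The coding transcript NM_010239, of 929 bases, differed from it by at most 10 counts in any library and gave the same log2 fold changes of 0.55, 0.43 and 0.98.

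Ftl1, the ferritin light chain (NM_010240, chromosome 7, 45457944 to 45459886), rose only in the second step and ended 1.57-fold above day 0. It was at 267 and 370.2 CPM on day 0, 247 and 284 CPM on day 2, and 434 and 563 CPM on day 4. Days 0 and 2 overlapped, and both day 4 libraries lay above all others. The first step gave a log2 change of -0.26 ± 0.17 (adjusted p = 0.21), with a 95% interval from -0.64 to 0.12. It was 0.91 ± 0.18 (adjusted p = 0.0036) for day 4 against day 2 and 0.65 ± 0.17 (adjusted p = 0.006) for day 4 against day 0. Single libraries mattered here. Without day 0 replicate 1 the first step was called as a fall (-0.48, adjusted p = 0.0075), without day 2 replicate 1 the second step was no longer called (0.81, adjusted p = 0.076), and without day 4 replicate 2 the change from day 0 to day 4 was not (0.44, adjusted p = 0.071). The level of Ftl1 is also uncertain because 80.6% of its 31-base words occur in the coding gene Ftl1-ps1 and 48.8% in 17 pseudogenes, and how reads with several alignments were counted is not given in the sources used here. For the coding transcript of Fth1 the share of words found in pseudogenes was 12.9%.

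No test compared the courses of the 2 ferritin subunits directly. The test of whether the second step differed from the first gave a log2 difference of 1.17 ± 0.31 (adjusted p = 0.017) for Ftl1 and -0.12 ± 0.22 (adjusted p = 0.71) for Fth1. Within a library, the ratio of Fth1 to Ftl1 per length, in TPM (counts divided by transcript length and scaled to a fixed sum), was 2.62 and 1.71 on day 0, 3.79 and 3.55 on day 2, and 2.91 and 2.42 on day 4. The day 2 ratios lay above all others, and those of days 0 and 4 overlapped. The noncoding length of Fth1 would lower the ratio in each library without changing this order (1.34 ± 0.40, 2.28 ± 0.10 and 1.66 ± 0.21 on days 0, 2 and 4, SD, n = 2). No test was run on the ratios.

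**Figure D2:**
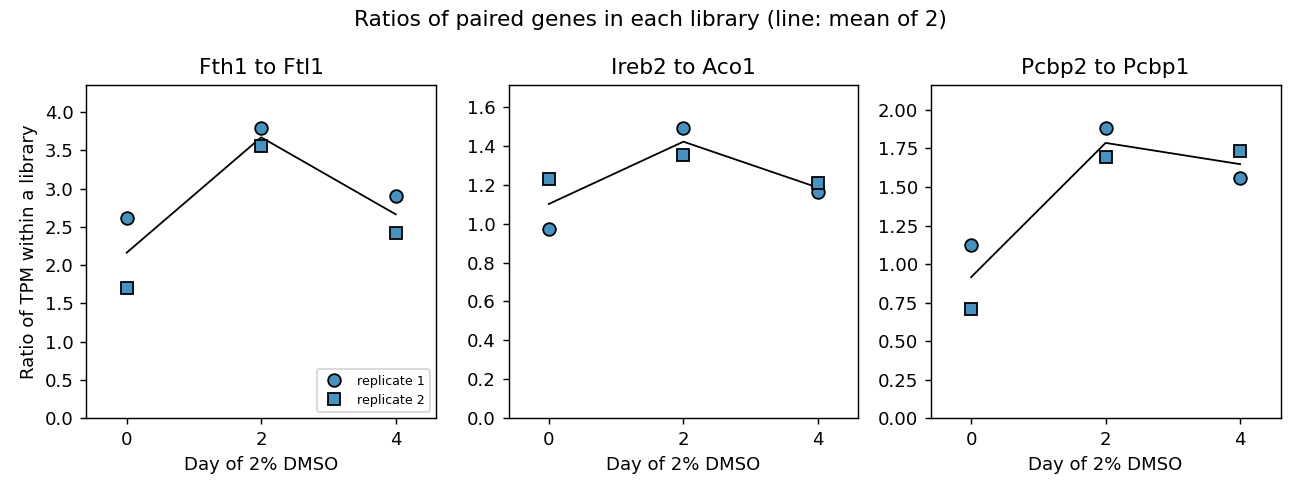
Ratio of TPM within each library (vertical axes, from 0) for Fth1 to Ftl1, Ireb2 to Aco1 and Pcbp2 to Pcbp1 on each day of 2% DMSO (circle replicate 1, square replicate 2, line the mean of 2 libraries). All 3 mean ratios were highest on day 2, at 3.67, 1.42 and 1.79.

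No test compared the messages of the 2 iron regulatory proteins with each other. Aco1, which encodes IRP1 (NM_007386, chromosome 4, 40143265 to 40199009), was not called between any days (edgeR, adjusted or unadjusted p). It was at 79.5 and 59.6 CPM on day 0, 73.4 and 73.6 CPM on day 2, and 77.7 and 73.6 CPM on day 4. With TMM factors the day 0 libraries bracketed those of day 2 and day 4, and the largest spread lay between the untreated replicates. Scaled by total counts alone, day 2 (78.0 and 78.7 CPM) lay above day 0 (74.7 and 54.9). Over the 4 days the log2 change was 0.12 ± 0.13 (adjusted p = 0.42), with a 95% interval from -0.17 to 0.41, and for day 2 against day 0 it was 0.08 ± 0.13 (adjusted p = 0.62). The untreated replicates decide this result. Without day 0 replicate 1 both changes were called as rises (0.34, adjusted p = 0.0081, and 0.30, adjusted p = 0.018), and without day 0 replicate 2 both values were negative (-0.08 and -0.12). The step from day 2 to day 4 was 0.04 ± 0.13 (adjusted p = 0.83), and -0.04 with total counts as the only scaling.

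Ireb2, which encodes IRP2 (NM_022655, chromosome 9, 54862658 to 54912534), was highest on day 2. Its levels were 117 and 110.2 CPM on day 0, 165 and 149.8 CPM on day 2, and 136 and 134 CPM on day 4. The days did not overlap, with day 4 between the other two. The rise to day 2 was 0.47 ± 0.10 on the log2 scale (adjusted p = 0.0024), and the value for day 4 against day 2 was -0.22 ± 0.10 (adjusted p = 0.13). That second step was called as a fall when only those 2 days were fitted (-0.23, adjusted p = 0.042), without day 0 replicate 1 (-0.23, adjusted p = 0.047) and without day 0 replicate 2 (-0.22, adjusted p = 0.047). The change from day 0 to day 4 was 0.25 ± 0.10 (adjusted p = 0.0498) and sat at the threshold, so 4 of the 8 other settings and 5 of the 6 fits without a library lost it. Those 5 fits gave 0.20 without day 0 replicate 2, 0.25 without day 2 replicate 1, 0.25 without day 2 replicate 2, 0.24 without day 4 replicate 1 and 0.26 without day 4 replicate 2. The ratio of Ireb2 to Aco1 per length was 0.97 and 1.23 on day 0, 1.49 and 1.35 on day 2, and 1.16 and 1.21 on day 4. The day 2 ratios lay above the others, and those of days 0 and 4 overlapped.

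Fbxl5, the iron-sensing subunit of the ligase that targets IRP2 (NM_001159963, chromosome 5, 43744618 to 43782149), had the largest rise among the 8 members in the first step. It was at 39.0 and 35.5 CPM on day 0, 66.8 and 60.1 CPM on day 2, and 51.3 and 62.0 CPM on day 4. Both later days lay above day 0, and they overlapped with each other. Scaled by total counts alone, day 4 (52.4 and 61.5 CPM) lay below day 2 (71.1 and 64.3). The log2 fold change was 0.77 ± 0.12 (adjusted p = 0.00029) for day 2 against day 0, -0.16 ± 0.12 (adjusted p = 0.34) for day 4 against day 2 and 0.61 ± 0.12 (adjusted p = 0.001) for day 4 against day 0, or 1.52-fold. The second transcript, NM_178729, is 4237 bases long against 2858, had fewer counts in every library, and gave 0.63 and 0.50 for day 2 and day 4 against day 0 (adjusted p = 0.00098 and 0.0033). For both Fbxl5 and Ireb2, the second step differed from the first, by -0.93 ± 0.21 for Fbxl5 (adjusted p = 0.0081) and -0.69 ± 0.18 for Ireb2 (adjusted p = 0.015).

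Ncoa4, the receptor that takes ferritin to the lysosome (NM_019744, chromosome 14, 32159879 to 32179855), fell in the first step and was 0.74 times its day 0 level on day 4. It was at 193 and 167 CPM on day 0, 133 and 121 CPM on day 2, and 126 and 139.8 CPM on day 4. Both day 0 libraries lay above all later ones, and days 2 and 4 overlapped. The log2 fold change was -0.51 ± 0.12 (adjusted p = 0.0033) for day 2 against day 0 and -0.44 ± 0.12 (adjusted p = 0.0061) for day 4 against day 0. The first lost its call without day 2 replicate 2 (-0.43, adjusted p = 0.059) and the second without day 4 replicate 1 (-0.36, adjusted p = 0.066). The step from day 2 to day 4 was 0.07 ± 0.12 (adjusted p = 0.7), and -0.02 with total counts alone. All 3 Ncoa4 transcripts gave nearly the same counts, within 11 in any library. The pseudogene Gm6768 holds 53.9% of the 31-base words of Ncoa4, so its level is uncertain too.

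The 2 iron chaperones were tested separately. Pcbp1 (NM_011865, chromosome 6, 86524480 to 86526189) fell to 0.6 times its day 0 level by day 2 and stayed there. It was at 247 and 303 CPM on day 0, 163 and 167 CPM on day 2, and 166 and 167 CPM on day 4. The 4 later libraries lay close together, and all were below day 0. The log2 fold change was -0.73 ± 0.12 (adjusted p = 0.00036) for day 2 against day 0 and -0.72 ± 0.12 (adjusted p = 0.00027) for day 4 against day 0, calls that were kept under every alternative run. For day 4 against day 2 it was 0.01 ± 0.12 (adjusted p = 0.94), and -0.07 with total counts alone. The difference between its steps was 0.75 ± 0.21 (adjusted p = 0.023), and lost its call with total counts alone (0.46, adjusted p = 0.11).

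Pcbp2 (NM_001103165, chromosome 15, 102470450 to 102500068) was not called between any days either (edgeR, adjusted or unadjusted p). It was at 446 and 346 CPM on day 0, 495 and 456 CPM on day 2, and 419 and 468 CPM on day 4. The day 0 replicates stood farthest apart, the day 2 libraries lay above both, and day 4 overlapped with both other days. Scaled by total counts alone, the days did not overlap. Day 4 (428 and 464 CPM) then lay between day 0 (419 and 318.5) and day 2 (527 and 488). The log2 fold change was 0.26 ± 0.14 (adjusted p = 0.12) for day 2 against day 0, with a 95% interval from -0.05 to 0.58, and 0.16 ± 0.14 (adjusted p = 0.32) for day 4 against day 0. With total counts as the only scaling, under which the median of all transcripts stood at 0.22 in the first step and 0.11 from day 0 to day 4 (0.02 and 0.00 with TMM factors), the first step was called (0.46, adjusted p = 0.015). Without day 0 replicate 1 both were called (0.46, adjusted p = 0.0031, and 0.35, adjusted p = 0.013), and without day 0 replicate 2 they were 0.08 and -0.02. The step from day 2 to day 4 was -0.10 ± 0.14 (adjusted p = 0.62). Its 4 transcripts differed by at most 32 counts in any library. The ratio of Pcbp2 to Pcbp1 per length was 1.12 and 0.71 on day 0, 1.88 and 1.69 on day 2, and 1.56 and 1.74 on day 4, so every induced library lay above both untreated ones.

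**Figure D3:**
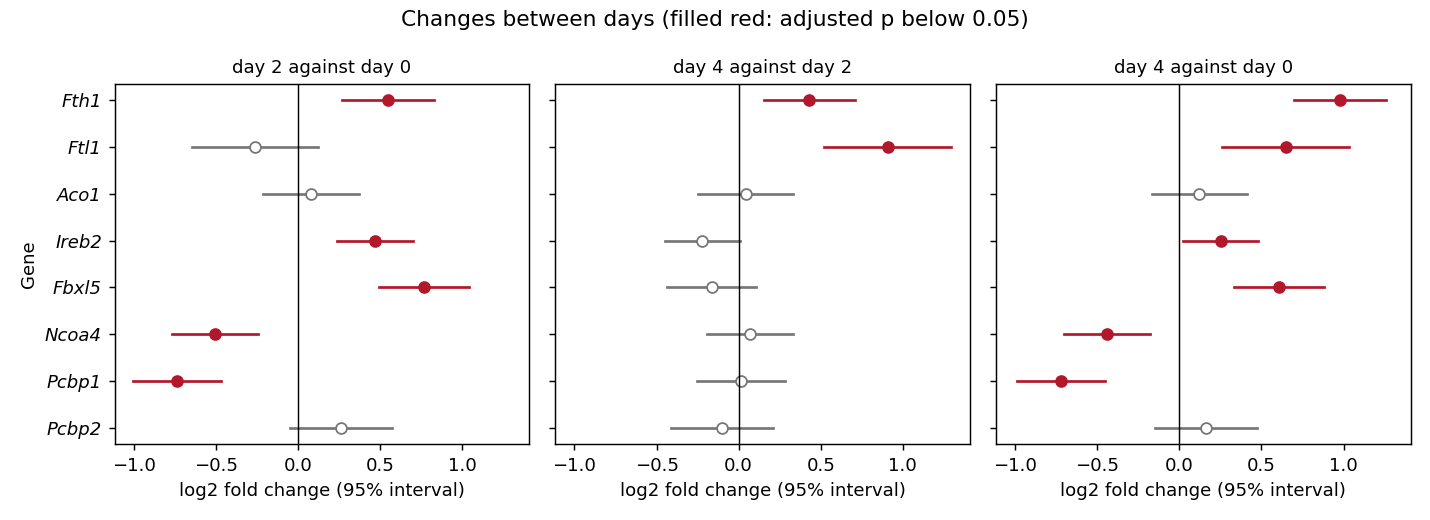
Log2 fold change (horizontal axis) with its 95% interval for each gene in the 3 comparisons between days, from edgeR's quasi-likelihood fit of all 6 libraries; filled red points have an adjusted p below 0.05. Called genes number 5 in the first step, 2 in the second, both ferritin subunits, and 6 from day 0 to day 4, beside 63.4%, 31% and 72.3% of all transcripts.

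Across the 8 genes, the second step differed from the first for Ftl1, Pcbp1, Ireb2 and Fbxl5, which is 4 of 8, against 30% of all transcripts. For Ncoa4 the difference was 0.57 ± 0.21 (adjusted p = 0.058). It was called with DESeq2 (0.61, adjusted p = 0.028), with relative log expression factors (0.61, adjusted p = 0.047), with no filter beyond 1 count (0.56, adjusted p = 0.043), without day 0 replicate 1 (0.46, adjusted p = 0.042) and without day 0 replicate 2 (0.68, adjusted p = 0.0062). Both steps share the day 2 libraries, and without day 2 replicate 1 or without day 2 replicate 2 the number called was 0 in either case. The values without these libraries kept their sign, from 0.97 to 1.37 for Ftl1, 0.71 to 0.77 for Pcbp1, -0.83 to -0.56 for Ireb2 and -1.09 to -0.78 for Fbxl5. Without day 4 replicate 1 the difference for Pcbp1 was not called (0.74, adjusted p = 0.061). Without day 4 replicate 2 the difference for Pcbp1 (0.74) and that for Ireb2 (-0.68) were not called.

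Per length, ferritin heavy chain was the most abundant of the 8 messages on every day. By its coding transcript, Fth1 was at 1539 ± 147 TPM on day 0, 2694 ± 129 on day 2 and 3299 ± 123 on day 4 (SD, n = 2), and ranked between 24 and 32 of 23498 genes on day 0 and at 10 in both day 4 libraries. Ftl1 followed at 734 ± 151, 736 ± 68 and 1252 ± 209 TPM, and its rank went from between 69 and 106 on day 0 to between 28 and 43 on day 4. TPM values depend on which transcripts enter the fixed sum. Over 1 transcript per gene, Ftl1 was at 1073, 1064 and 1756 TPM on days 0, 2 and 4. That choice scales all genes of a library alike, so their order within it stays the same. Pcbp1 and Pcbp2 did not differ beyond their spread on day 0 (335 ± 40.3 and 301 ± 61 TPM). On day 4 Pcbp2 was the higher, at 365 ± 22.3 TPM against 222 ± 3.12 for Pcbp1. Ncoa4 stood next on each day, at 121 ± 15.5, 102 ± 7.63 and 96.6 ± 5.62 TPM. The 3 regulators were the lowest. On day 0 Ireb2 (44.0 ± 2.81 TPM) and Aco1 (40.7 ± 9.19) overlapped and Fbxl5 was below both (29.2 ± 2.68). On day 4 Ireb2 led (56.9 ± 1.65), while Fbxl5 (48.2 ± 5.65) and Aco1 (48.1 ± 2.68) overlapped.

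**Figure D4:**
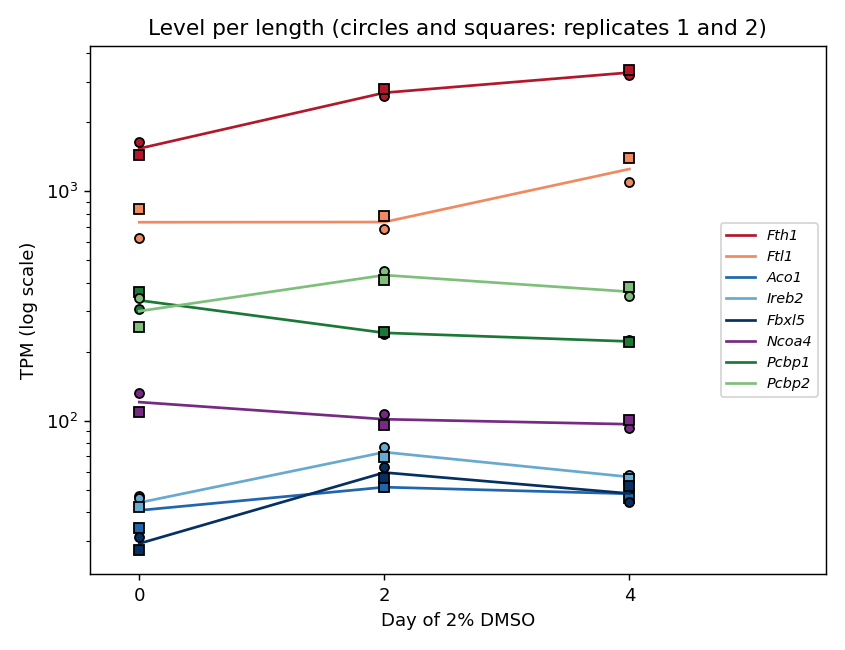
Level per length (TPM, vertical log axis) of the 8 genes on days 0, 2 and 4 of 2% DMSO; points are libraries and lines join the means of 2 libraries, with Fth1 by its coding transcript. Fth1 lies on top on each day (1539 to 3299 TPM on average), the chaperones lie in the middle, and Aco1, Ireb2 and Fbxl5 lie lowest, between 27.3 and 76.7 TPM.

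Of 8 other messages listed as carrying an IRE, which are not all such messages, 7 were tested, and Epas1 had 0 counts. The hairpin search matched the 5′ UTR of 2 of these 8 (Alas2 and Slc40a1) and the 3′ UTR of 1 (Tfrc), and the others are listed from background knowledge. From day 0 to day 4, 6 rose (Alas2, Slc40a1, Tfrc, Slc11a2, Cdc42bpa and Pfn2) and 1 was not called (Cdc14a), beside 36.2% of all transcripts called higher and 36.1% lower. In the first step 4 rose (31.9% of all transcripts did), and in the second 3 rose and 1 fell (14.6% and 16.4% of all). These counts do not describe all IRE-bearing messages. Transcripts of the same gene can each carry nearly its full count, so the share of each gene's message that holds the IRE is not known. Alas2, the erythroid enzyme that starts heme synthesis, went from 76.4 ± 16.4 CPM to 1417 ± 132 CPM (SD, n = 2), a log2 fold change of 4.21 (adjusted p = 1.9e-08). Tfrc, through which the cells take up transferrin iron, was not called in the first step (0.03, adjusted p = 0.85) and rose in the second (1.19, adjusted p = 0.00014), as Ftl1 did. Slc40a1, which exports iron, rose in the first step (1.27, adjusted p = 1.6e-05) and fell in the second (-0.39, adjusted p = 0.046).

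**Figure D5:**
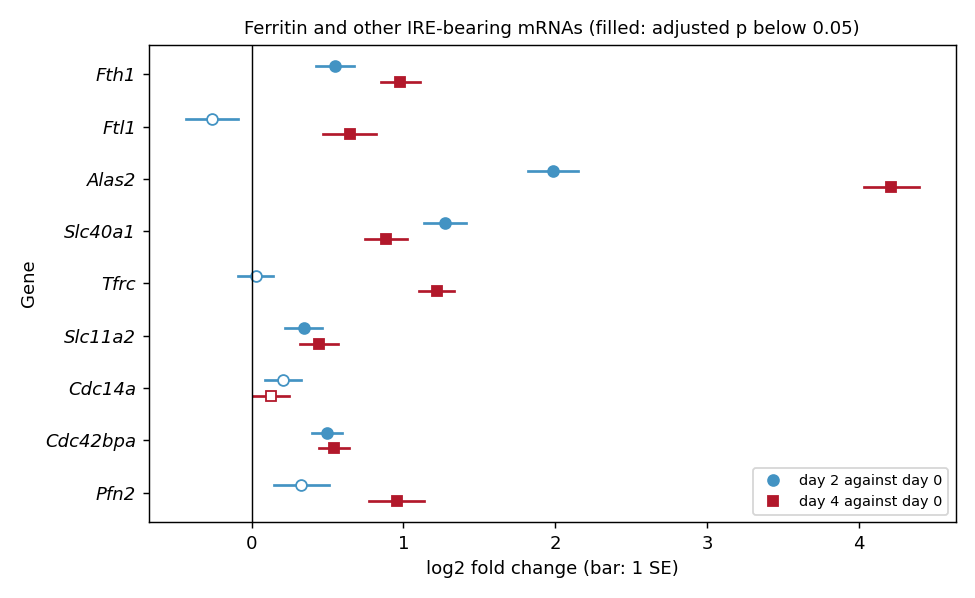
Log2 fold change (horizontal axis, bar 1 SE) of Fth1, Ftl1 and 7 other tested messages listed as IRE-bearing for day 2 (blue circles) and day 4 (red squares) against day 0; filled points have an adjusted p below 0.05. Alas2 lies farthest right at 4.21 on day 4, and Tfrc moves from 0.03 to 1.22.

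The messages of Skp1, Cul1 and Rbx1, which encode the partners of FBXL5 in its ligase, all fell from day 0 to day 2 and to day 4. Their median log2 fold changes were -0.48 and -0.45, and 31.6% and 36.1% of all transcripts were called lower in these comparisons. In the second step 0 of 3 were called in either direction by edgeR or at an unadjusted p below 0.05. By edgeR's adjusted p, 31% of all transcripts were called there. The list for ferritin turnover by autophagy holds 5 genes, which do not all act in the same direction. From day 0 to day 4, 4 of them rose and 0 fell, at a median of 0.80, beside 36.2% of all transcripts called higher. They were Herc2, the ligase that targets NCOA4 (0.59, adjusted p = 0.00048), Atg9a (1.42), Rb1cc1 (0.80) and Map1lc3b (1.07), while Tax1bp1 stood at -0.01 (adjusted p = 0.96). In the first step 3 rose (Herc2, Rb1cc1 and Map1lc3b, median 0.30), beside 31.9% of all transcripts called higher. In the second 1 rose, Atg9a (1.26, median of the list 0.16), beside 14.6% called higher. Ncoa4 itself fell over the same days.

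Of 5 relatives and partners of the chaperones, 4 fell from day 0 to day 4 and 1 rose, with a median of -0.92, beside 36.1% of all transcripts called lower and 36.2% higher. Hnrnpk, a related RNA-binding protein, fell by 0.79 on the log2 scale (adjusted p = 0.00062). Bola2 and Glrx3, which handle iron-sulfur clusters together, fell by 0.92 and 1.14 (adjusted p = 1.5e-05 and 3.1e-05). Pcbp4 rose (0.45, adjusted p = 0.0089), and Pcbp3, with 74 counts over all libraries, fell. In the first step 4 fell and 0 rose (median -0.75), beside 31.6% of all transcripts called lower and 31.9% higher. In the second 1 fell, Bola2 (-0.60, adjusted p = 0.0022), and 0 rose (median of the list -0.39), beside 16.4% called lower and 14.6% higher. Of the other ferritin genes, mitochondrial ferritin (Ftmt) had 0 counts in every library, where a count of 0 allows up to 3, and Ftl2 was not analysed here.

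Promoters are shown for the ferritin pair, the members with a CCAAT match among the 7 whose promoters were on hand. Fbxl5 had none on hand. Binding to these sites was not measured, and whether they bear on the changes between days was not tested. RefSeq promoters of GRCm38.p6 were on hand for 7 of the 8 members, with 11 start sites, and the 250 bases before each start were searched on both strands for CCAAT (read as ATTGG on the other strand) and for GATA preceded by A or T and followed by A or G, the letters that GATA factors favour. A CCAAT box was found before 2 of the 11 starts, the coding start of Fth1 (once) and that of Ftl1 (2 times), beside 33.8% of 32851 promoters. The GATA letters were found before 2 starts, 1 each of Ncoa4 and Pcbp2, beside 26.5% of all promoters. The stretches of 30 bases below hold the boxes in capitals, at chr19:9982616-9982645 (plus strand), chr7:45459947-45459976 and chr7:45459903-45459932 (both minus strand), with the box starting 7, 78 and 34 bases before the start site.
Fth1: gggcggcgcggcccgctgcgctgATTGGcc
Ftl1, far box: cctcagctccggATTGGtcaagtatacttt
Ftl1, near box: acgccaccgccgATTGGttagtctcgggcc

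The genes closest in pattern to each member were found by Pearson correlation of log2 CPM over the 6 libraries among 8873 genes, as a description, since all points share their library and day. For Fth1 they were Plekhm1 and Tusc2 (both 1.00), for Ftl1 Zfp687 and 4933439C10Rik (both 0.99), and for Aco1 Lama5 and Usp48 (both 0.99). For Ireb2 they were Mipol1 and Spast (both 0.99), for Fbxl5 Primpol (1.00) and Stau2 (0.99), and for Ncoa4 Mto1 and Sik3 (both 0.99). Those of Pcbp1 were Med17 and 1700017B05Rik (both 1.00), and those of Pcbp2 were B3gnt2 (1.00) and Iah1 (0.98). Med17, for example, was at 237 and 346 CPM on day 0 and between 114 and 119.9 CPM in the 4 later libraries, and so had the difference between the untreated replicates that Pcbp1 had.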

How the data were processed

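mRNA-seq of MEL cells at days 0, 2 and 4 of 2% DMSO, with 2 libraries a day, was analysed from raw read counts per RefSeq transcript, which the authors deposited unnormalized for each library. The authors made stranded, poly(A)-selected libraries, trimmed them with cutadapt and aligned them to mm10 with TopHat. The submitters' processing notes also name HTSeq. Its settings, and its treatment of reads with several alignments, are not given in the sources used here. Reads with several alignments and ambiguous reads are both listed at 0, and transcripts of the same gene can each carry nearly its full count, so totals and CPM count some reads more than once. Counts on transcripts totalled 35294930 to 53899476 per library. Reads on no feature were left out. They made up 50.5% to 58.4% of the sum of these reads and the counts on transcripts. Some reads enter that sum more than once, so this is not an exact share of reads. The percentage was highest in the day 4 libraries (58.1% and 58.4%).

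Symbols and coordinates came from RefSeq (GRCm38.p6), and transcript lengths and UTRs from GENCODE M21. The span given beside each member's transcript is that of its gene, which can be wider than the transcript. The 8 members and all gene lists were chosen with earlier results of these data known. Each gene was represented by its transcript with the highest mean count. Named genes are the 8 members, the context genes of each list, and for each member the 2 genes with the highest correlation of log2 CPM (0.5 added; mean log2 CPM of at least 3). Days were compared in edgeR 4.0.16 under R 4.3.3 by a quasi-likelihood fit to all 6 libraries at once (glmQLFit, glmQLFTest; 1 mean for each day), after filterByExpr by day kept 18351 transcripts and TMM factors were set. A Benjamini-Hochberg adjusted p below 0.05 was a call. The first and second steps are day 0 to 2 and day 2 to 4. SE came from the fold change and F. TPM used all transcripts with a length. Words of 31 bases shared with other GENCODE transcripts were counted. Alternatives were DESeq2 1.42.0, relative log expression factors, total counts, scaling without globins, no filter beyond 1 count, only the 2 days compared, a replicate block, 1 transcript per gene and leaving out each library. Using NM_010239 for Fth1 was added after seeing the data. The fits were also run on simulated counts in which few transcripts changed. In the real data most transcripts were called between day 0 and each later day, so that run does not test the scaling used here. A listed gene that is not reported here was taken out of its list, for a reason unrelated to its values.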

Additional observations from a re-analysis of the deposited data

How the results depend on the processing

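The values of the 8 genes were recomputed under 14 other settings, 6 of them with a library left out, when the lone library of that day is assumed to vary like those of the other days. Of the 440 recomputed log2 fold changes, 382 kept direction and side of the threshold, 30 lost their call, 15 gained one and 13 changed sign, all from values that were not called. The cause was not tested, except that 1 transcript per gene tests fewer features.

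With total counts as the only scaling, the number of members called in the second step (day 2 to day 4) was 1 in place of 2, and in that step Aco1 became -0.040, Ncoa4 -0.017 and Pcbp1 -0.069. With relative log expression factors, the difference between the steps for Aco1 was 0.00019. With 1 transcript per gene, called features numbered 7683 in the first step, 3666 in the second and 3660 in the difference between the steps.

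With a library left out, the number of members called ranged from 4 to 8 in the first step, 0 to 3 in the second, 4 to 8 overall and 0 to 6 in the difference between the steps. Called transcripts ranged from 1410 to 8224 in the second step and from 1195 to 7975 in the difference between the steps. Aco1 ranged from -0.12 to 0.30 in the first step, -0.00039 to 0.078 in the second, -0.084 to 0.34 overall and -0.26 to 0.16 in the difference between the steps. In the second step, Ncoa4 ranged from -0.015 to 0.14 and Pcbp1 from -0.0044 to 0.027. Pcbp2 ranged from -0.021 to 0.35 between day 0 and day 4.

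The replicate numbers were not taken as pairs, since the study's methods name no block. Libraries with the same replicate number also did not deviate together (correlations of 0.03, 0.05 and 0.08 between days). With the replicate number as a block, the number of members called was 5, 2, 6 and 4, as without it, and the transcripts called numbered 11564, 5578, 13246 and 5322. There were 2 libraries a day, DMSO and time in culture cannot be told apart, and Ftl1 and Ncoa4 share sequence with gene copies.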
